A study of Homo sapiens with 27 samples.

Results

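The comparison concerned MOLM13, a human acute myeloid leukaemia (AML) cell line, after knockdown of CARM1 with a first short hairpin RNA. It set the 3 libraries with shCARM1 hairpin 1 against the 3 libraries with the scramble hairpin, chosen by their labels alone. These are 6 of the 27 libraries of the series, which also holds a second CARM1 hairpin in MOLM13 and the same 3 arms in the AML lines MV411 and SKNO1. All hairpins were delivered by a constitutive lentiviral vector, the scramble hairpin included, and RNA was taken 3 days later. MOLM13 and MV411 were grown without a listed media supplement, and SKNO1 with 10 ng/mL GM-CSF. MOLM13 is a monocytic line with a KMT2A-MLLT3 fusion and an internal tandem duplication in FLT3, so the replicates vary around 1 line and not between patients. The myeloid receptor gene CSF3R and the leukaemic markers FLT3, MEIS1 and HOXA9 were present in every library. The monocyte marker CD14 was near absent from the scramble libraries, with values given below. The libraries came from total RNA after removal of cytoplasmic ribosomal RNA. Expression was deposited as RSEM counts of 57992 genes, and 17732 of them passed the filter on low counts and were tested. Totals were 29004790 to 53291599 counts in the hairpin 1 libraries and 37470641 to 50973177 counts in the scramble libraries. Levels are given in CPM (counts scaled to a common library size), which depend on transcript length and are not compared between genes.

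CARM1, also called PRMT4, transfers methyl groups to arginines of histone H3 and of many other proteins, and works as a coactivator that transcription factors recruit to promoters and enhancers. Its known substrates include the SWI/SNF subunit SMARCC1 and the RNA-binding protein ELAVL1. In human blood progenitors it has been described as a brake on myeloid differentiation, in part by methylating RUNX1. AML cells are held in a dividing, immature state, and genes of the cell cycle usually fall and genes of mature monocytes and granulocytes usually rise when such cells leave it.

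CARM1 lies on chromosome 19 from 10871513 to 10923070 on the plus strand (GRCh38, GENCODE 29). Its level was 2.52, 5.13 and 4.82 CPM in the hairpin 1 libraries, against 17.6, 25.1 and 22.0 CPM in the scramble libraries. Every hairpin 1 library was below every scramble library, and 19.4% of the scramble level was left by the fit. The log2 fold change was -2.37 ± 0.30 (SE, n = 3 each), with an adjusted p of 0.00208 in edgeR's quasi-likelihood test over all genes tested. Taken alone, a two-sided exact permutation test of 3 against 3 libraries gave p = 0.1, the smallest it can give. CARM1 remained past the threshold in each of the 6 fits that left out 1 library, with log2 fold changes between -2.54 and -2.12. Of the 11 tested arginine methyltransferases and cofactors, 1 fell and none rose. This was RIOK1, an adaptor of PRMT5, with an adjusted p of 0.0481 in edgeR and of 0.0600 with the replicate number as a block over the 9 MOLM13 libraries, but 0.00849 with the block in a fit of these 6. PRMT1, the main arginine methyltransferase of most cells, stood at 126, 134 and 139 CPM in hairpin 1 against 163, 181 and 179 CPM in scramble, with an edgeR adjusted p of 0.118. Of 19 tested partners and substrates of CARM1, 1 fell and none rose, where 4.13% of all genes tested fell. ELAVL1, which stabilises mRNAs with AU-rich elements, had 35.9, 35.6 and 30.6 CPM in hairpin 1 against 53.3, 55.2 and 49.0 CPM in scramble (edgeR adjusted p = 0.0235). The groups did not overlap, but both RIOK1 and ELAVL1 lost their call in each fit that left out 1 library.

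Across all genes, 1101 of 17732 tested changed at an adjusted p under 0.05, which is 6.21%. Of these, 369 rose (2.08% of the genes tested) and 732 fell (4.13%). Falls were also the larger share of the strong changes, since 266 genes rose more than 2-fold (1.5%) and 457 fell more than 2-fold (2.58%). Whether called or not, 2921 genes had hairpin 1 values that were all higher (16.5%) and 3090 had values that were all lower (17.4%). The 1101 genes kept their sign in all 6 fits that left out 1 library, and 298 of them, 50 that rose and 248 that fell, also stayed past the threshold in every such fit. The count itself fell to 625, 391 and 474 without hairpin 1 replicates 1, 2 and 3, and to 928, 368 and 361 without scramble replicates 1, 2 and 3. With the replicate number as a block in a fit of these 6 libraries alone, an alternative chosen after seeing the data, 3159 genes were called.

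**Figure D1:**
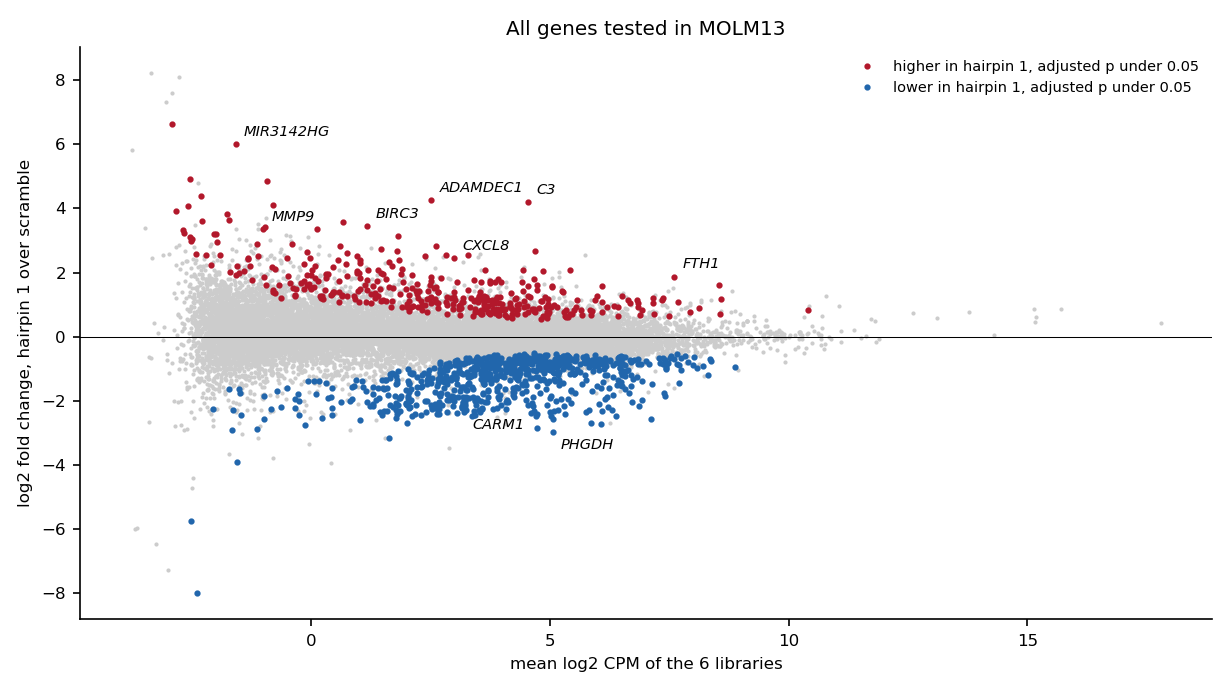
Each point is a gene tested in MOLM13, with its mean log2 CPM over the 6 libraries on the x axis and its log2 fold change, hairpin 1 over scramble, on the y axis. Red points (369) rose and blue points (732) fell at an adjusted p under 0.05, and C3 and ADAMDEC1 stand highest among the well-expressed genes that rose.

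The genes with the largest falls came from 3 groups. Among called genes with a mean log2 CPM of at least 2 and no overlap between the groups, the 15 with the largest fall comprised 8 replication-dependent histone genes, the mitotic genes DEPDC1, PKMYT1, AURKB and KIF2C, the replication licensing factor CDT1, and PHGDH and PSAT1 of serine synthesis. The 15 with the largest rise were ADAMDEC1, C3, FCAR, CYP27A1, ALOX5, SEMA6B, IL4I1, CXCL8, NCF1B, NCF1, AOAH, NCF1C, PDE4B, FTH1 and KIAA0513. Several of these are effectors of monocytes, macrophages or neutrophils, such as the complement component C3, the IgA receptor FCAR and the leukotriene enzyme ALOX5. NCF1, NCF1B and NCF1C are near-identical copies, so the division of reads among them is uncertain. NCF1 and NCF1C had edgeR adjusted p of 0.0462 and 0.0380, and 0.0698 and 0.0588 with the replicate block over the 9 MOLM13 libraries, but 0.0121 and 0.00494 with the block in the fit of these 6.

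Genes of the cell cycle fell in the largest numbers. E2F factors drive genes of DNA replication from sites near the start of transcription, while genes of mitosis are driven later from CCAAT boxes bound by NF-Y and from the cell cycle homology region (CHR) bound by MuvB complexes with B-MYB. The promoters of 3 replication and 3 mitosis genes with some of the smallest p-values are shown with matches to these elements marked. They are RefSeq sequences of GRCh38.p14 on the gene's strand, from 250 bases before to 50 bases after the start. Capitals mark matches on either strand to E2F (TTTCCCGC, TTTCGCGC, TTTGCCGC or TTTGGCGC) in the replication genes, and to E2F, CHR (TTTGAA or TTCGAA) or CCAAT in the mitosis genes. MCM6 (chr2:135876394-135876693, minus strand) and MCM2 (chr3:127598161-127598460, plus strand) encode subunits of the MCM helicase, and ORC1 (chr1:52404374-52404673, minus strand) a subunit of the origin recognition complex.
MCM6: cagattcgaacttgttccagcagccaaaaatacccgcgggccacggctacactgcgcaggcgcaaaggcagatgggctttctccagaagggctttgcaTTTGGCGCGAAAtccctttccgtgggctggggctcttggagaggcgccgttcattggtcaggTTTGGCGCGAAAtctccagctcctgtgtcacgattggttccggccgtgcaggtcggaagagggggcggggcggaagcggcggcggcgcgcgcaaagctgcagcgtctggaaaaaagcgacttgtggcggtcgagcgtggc
MCM2: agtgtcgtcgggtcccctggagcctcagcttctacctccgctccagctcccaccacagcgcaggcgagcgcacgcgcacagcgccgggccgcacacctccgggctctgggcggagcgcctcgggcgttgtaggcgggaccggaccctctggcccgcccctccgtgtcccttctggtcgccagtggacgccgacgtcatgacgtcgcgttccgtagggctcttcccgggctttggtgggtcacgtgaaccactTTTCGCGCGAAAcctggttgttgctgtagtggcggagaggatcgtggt
ORC1: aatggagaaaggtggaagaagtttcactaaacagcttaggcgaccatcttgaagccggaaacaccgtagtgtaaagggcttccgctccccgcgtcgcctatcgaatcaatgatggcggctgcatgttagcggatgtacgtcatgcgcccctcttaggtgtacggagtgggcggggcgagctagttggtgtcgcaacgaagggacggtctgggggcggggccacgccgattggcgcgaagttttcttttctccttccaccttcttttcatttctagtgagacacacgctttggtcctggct
NCAPH (chr2:96335516-96335815, plus strand) encodes a condensin subunit, MKI67 (chr10:128126374-128126673, minus strand) the proliferation antigen Ki-67, and ZWINT (chr10:56361210-56361509, minus strand) a kinetochore protein.
NCAPH: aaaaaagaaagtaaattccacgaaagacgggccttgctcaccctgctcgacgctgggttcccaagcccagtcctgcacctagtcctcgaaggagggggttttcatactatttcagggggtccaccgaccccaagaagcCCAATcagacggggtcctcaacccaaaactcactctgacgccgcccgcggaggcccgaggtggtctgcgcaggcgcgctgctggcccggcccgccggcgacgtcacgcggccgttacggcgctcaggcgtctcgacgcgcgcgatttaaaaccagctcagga
MKI67: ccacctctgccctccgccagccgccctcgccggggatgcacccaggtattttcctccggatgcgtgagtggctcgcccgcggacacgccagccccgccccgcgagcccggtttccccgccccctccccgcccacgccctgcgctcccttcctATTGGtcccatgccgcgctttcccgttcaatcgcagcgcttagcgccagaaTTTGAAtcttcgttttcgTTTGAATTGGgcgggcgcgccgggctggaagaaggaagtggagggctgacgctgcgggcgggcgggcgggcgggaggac
ZWINT: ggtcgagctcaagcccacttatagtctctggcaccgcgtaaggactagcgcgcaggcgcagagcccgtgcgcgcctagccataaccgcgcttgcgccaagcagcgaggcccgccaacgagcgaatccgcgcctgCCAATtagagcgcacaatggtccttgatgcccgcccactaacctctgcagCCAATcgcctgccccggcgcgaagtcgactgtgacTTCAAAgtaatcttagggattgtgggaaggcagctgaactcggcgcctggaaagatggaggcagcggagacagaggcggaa
MCM6 had 4 overlapping E2F matches in 2 stretches, MCM2 had 2 that overlap across both strands, and ORC1 had none. MKI67 had 2 CHR and 2 CCAAT matches, 1 of each overlapping, ZWINT 1 CHR and 2 CCAAT, and NCAPH 1 CCAAT.

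Motif shares differed between the lists. An E2F match lay in 19 of 45 promoters found for the DNA replication list (42.2%) and in 6 of 59 for the mitosis list (10.2%), against 5.35% of 11186 promoters of genes tested and 3.33% of all 27305 promoters in the table. A CHR match lay in 45 of 59 mitosis promoters (76.3%) and in 3 of 45 replication promoters (6.67%), against 11.9% for genes tested and 16.6% for all promoters. CCAAT was found in 42 of 59 mitosis promoters (71.2%) and 25 of 45 replication promoters (55.6%), against 36.8% for genes tested and 35.7% for all. Promoters of replication-dependent histone genes held it in 43 of 52 cases (82.7%), so it was not particular to mitosis. Promoters of the genes that fell held E2F in 16.3%, CHR in 25.1% and CCAAT in 52.0% of 589 cases, and those of the genes that rose in 4.68%, 14.0% and 29.4% of 235. These are matches of letters and were not tested as binding sites.

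DNA replication genes fell almost as a set: 45 of 55 tested fell, none rose, and the median log2 fold change was -1.53, against 0.01 over all genes tested. MCM2 had 18.6, 24.5 and 20.3 CPM in hairpin 1 against 83.7, 96.3 and 87.2 CPM in scramble, a log2 fold change of -2.08 ± 0.17 (edgeR adjusted p = 4.99e-04). MCM6 had 16.4, 19.2 and 20.2 CPM in hairpin 1 against 77.4, 93.8 and 79.6 CPM in scramble, a log2 fold change of -2.17 ± 0.17 (edgeR adjusted p = 4.39e-04). Both helicase subunits were far below the lowest scramble library in every hairpin 1 library. ORC1 had 5.27, 5.62 and 6.64 CPM in hairpin 1 against 21.6, 24.2 and 24.3 CPM in scramble. CDT1, which loads the helicase onto origins, had 3.84, 5.30 and 4.17 CPM in hairpin 1 against 16.2, 30.8 and 27.9 CPM in scramble. PCNA, the sliding clamp, was a member that did not pass, at 96.2, 97 and 95.6 CPM in hairpin 1 against 159, 147 and 143 CPM in scramble (edgeR adjusted p = 0.105). Its groups did not overlap either. Of the 45 falls, 36 held in all 6 fits that left out 1 library, and 37 to 44 members were called in those fits.

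Genes of mitosis fell in 65 of 68 tested members, with a median log2 fold change of -1.91 and none that rose. MKI67 had 22.4, 26.5 and 23.3 CPM in hairpin 1 against 108, 138 and 121 CPM in scramble, a log2 fold change of -2.34 ± 0.23 (edgeR adjusted p = 8.08e-04). NCAPH had 2.78, 3.96 and 2.88 CPM in hairpin 1 against 14.8, 17.8 and 16.1 CPM in scramble. ZWINT had 11.3, 10.2 and 13 CPM in hairpin 1 against 34.4, 33.3 and 33.9 CPM in scramble. Replicates of each arm lay close together for these genes, with no overlap between arms. The arms did not overlap for the drivers of division either, although AURKB ran from 7 to 14.7 CPM within scramble: CDK1, the mitotic kinase, fell by 2.27 on the log2 scale, its partner CCNB1 by 1.61, the spindle kinase AURKB by 2.46 and the anaphase activator CDC20 by 2.02. Of the 65 falls, 53 held in all 6 fits that left out 1 library.

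Among the regulators above these genes, 9 of 21 tested E2F, RB and MuvB factors fell and none rose. E2F2, an activating E2F, had 1.32, 1.82 and 1.67 CPM in hairpin 1 against 7.39, 7.56 and 9.22 CPM in scramble, a log2 fold change of -2.32 ± 0.40 (edgeR adjusted p = 0.00819). E2F1 was lower by 2.55 on the log2 scale, but was not among the 5 list members that held in all 6 fits that left out 1 library. MYBL2, which encodes B-MYB, had 5.56, 8.41 and 9.52 CPM in hairpin 1 against 37.0, 41.7 and 34.8 CPM in scramble. The RB relative RBL1 and the repressive factor E2F7 were lower in hairpin 1 as well, so activators and repressors of the network both fell. The list had 5 falls without hairpin 1 replicate 2 and 6 to 8 without any other single library. RB1 itself had 76.3, 82.0 and 77.6 CPM in hairpin 1 against 69.8, 85.0 and 91.8 CPM in scramble (edgeR adjusted p = 0.872). Of 13 tested G1 cyclins, CDKs and inhibitors, 3 fell: CDK2, CCNE2 and CCND2. CDK2 had 6.18, 10.3 and 10.5 CPM in hairpin 1 against 21.7, 21.4 and 24.4 CPM in scramble, while CCND2 was not past the threshold in any fit that left out 1 library. CDKN1A, a CDK inhibitor, had 466, 268 and 263 CPM in hairpin 1 against 226, 194 and 111 CPM in scramble, without overlap and with an edgeR adjusted p of 0.174.

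Repair by homologous recombination and the Fanconi pathway fell with replication: 23 of 35 tested genes fell, none rose, and the median log2 fold change was -1.29. XRCC2, a recombination factor, had 1.68, 2.77 and 3.70 CPM in hairpin 1 against 13.2, 14.2 and 16.1 CPM in scramble. BLM, the Bloom helicase, had 14.6, 14.7 and 17.8 CPM in hairpin 1 against 34.9, 37.9 and 43.4 CPM in scramble. BRCA1, the breast cancer susceptibility gene, fell by 1.75 on the log2 scale. The supply of deoxynucleotides followed, with 13 of 28 tested genes of nucleotide synthesis lower and none higher. RRM2, the regulated subunit of ribonucleotide reductase, had 9.51, 11.2 and 11.2 CPM in hairpin 1 against 54.6, 59.2 and 53 CPM in scramble, a log2 fold change of -2.38 ± 0.22 (edgeR adjusted p = 8.05e-04). TYMS, thymidylate synthase, had 8.16, 7.98 and 7.20 CPM in hairpin 1 against 30.4, 33.6 and 26.1 CPM in scramble. In both genes the arms were separated by more than the spread within them. The nucleotide count dropped to 6 without scramble replicate 2 and without scramble replicate 3, and to 8 without hairpin 1 replicate 1 and without hairpin 1 replicate 3.

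Histone mRNAs that lack a poly(A) tail and are made in S phase were measured because the libraries came from total RNA. Of 64 tested replication-dependent histone genes, 37 fell and none rose, with a median log2 fold change of -1.84. Together the 90 listed histone genes, tested or not, took 0.132%, 0.212% and 0.168% of counts in hairpin 1 against 0.329%, 0.728% and 1.06% in scramble. Scramble replicate 1 was the lowest of its arm. HIST1H4A had 3.51, 5.36 and 5.46 CPM in hairpin 1 against 13.7, 27.6 and 37.3 CPM in scramble, a log2 fold change of -2.45 ± 0.43 (edgeR adjusted p = 0.0110). HIST1H1B, a linker histone, had 34.8, 76.5 and 77.8 CPM in hairpin 1 against 160, 338 and 626 CPM in scramble (edgeR adjusted p = 0.0216). Without scramble replicate 1 the list had 52 calls, and without any 1 of the other 5 libraries it had 6 to 10. Histone genes are close copies of each other, so single genes are uncertain while the summed share is less affected.

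**Figure D2:**
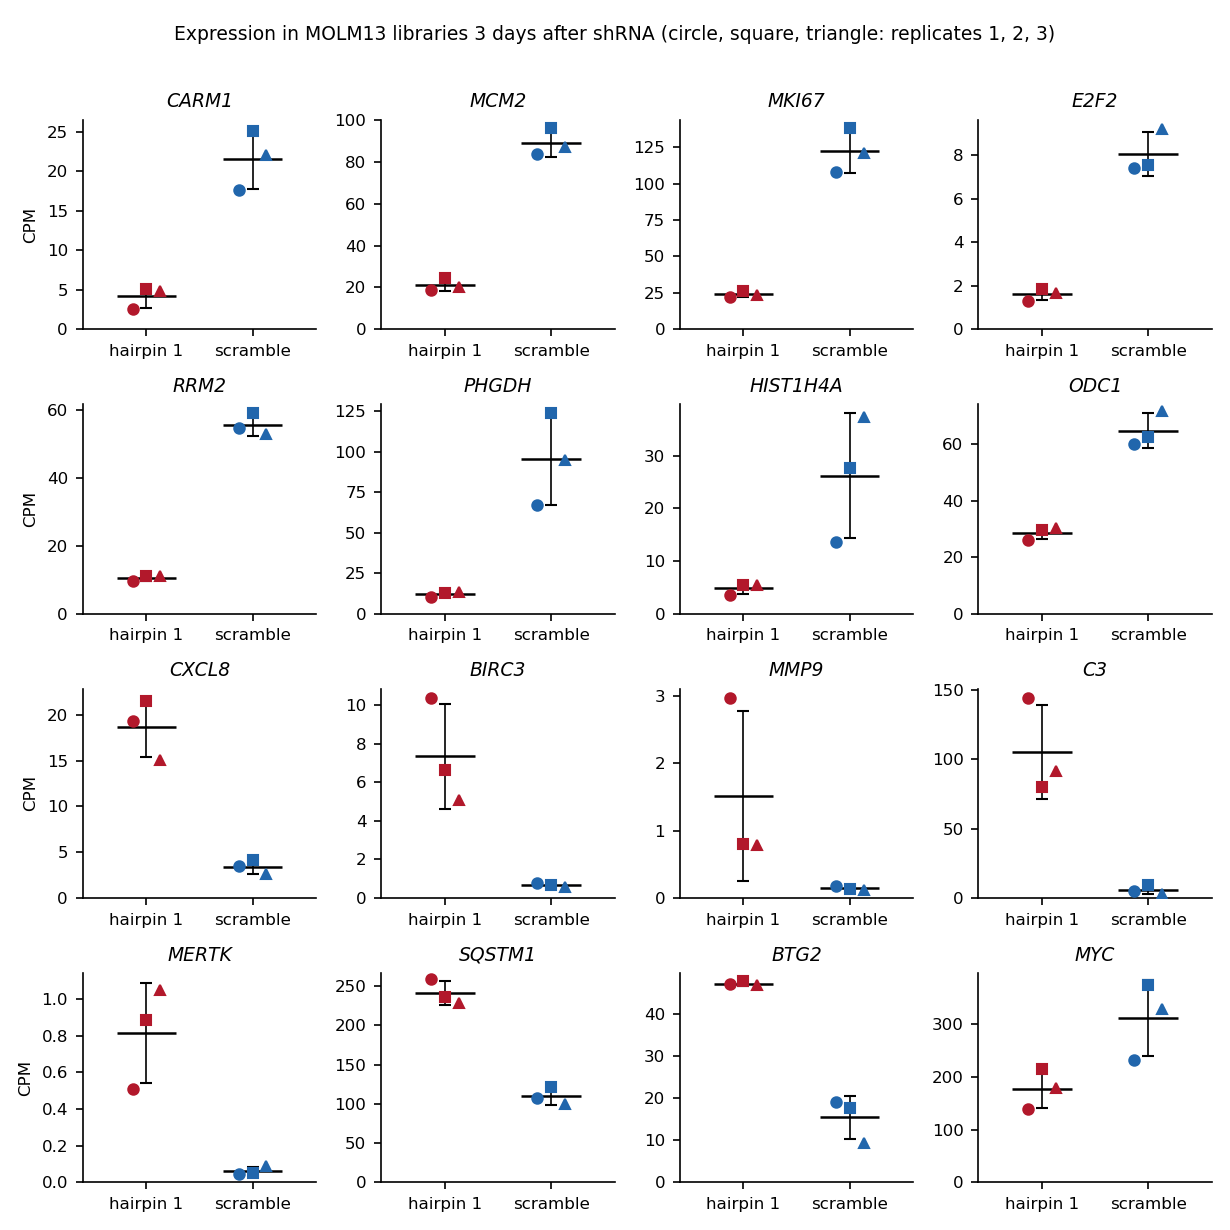
Levels of 16 genes in CPM, one panel a gene, with hairpin 1 on the left and scramble on the right. Points are libraries and bars show the mean ± SD of 3, and the arms do not overlap in any of the panels, with MYC the one panel whose gene was not called.

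Genes of serine, one-carbon and amino acid supply, many of them targets of the stress factor ATF4, had the most falls among the lists outside the cell cycle. Of 44 tested, 27 fell and none rose, with a median log2 fold change of -1.14. PHGDH, the first enzyme of serine synthesis, had 10.4, 12.5 and 13.1 CPM in hairpin 1 against 67.2, 123 and 95.1 CPM in scramble, a log2 fold change of -2.99 ± 0.51 (edgeR adjusted p = 0.0121). PSAT1, the next enzyme, had 31.3, 39.4 and 37.9 CPM in hairpin 1 against 132, 232 and 236 CPM in scramble, a log2 fold change of -2.47 ± 0.36 (edgeR adjusted p = 0.00449). Both arms were well apart, and within scramble replicate 1 was the lowest for both enzymes. ATF4 had 147, 138 and 173 CPM in hairpin 1 against 226, 316 and 285 CPM in scramble, a fall of 0.85 on the log2 scale (edgeR adjusted p = 0.0172). The amino acid carriers SLC38A1 and SLC7A1 fell by 1.53 and 1.94, the asparagine synthetase gene ASNS by 2.28, the mitochondrial one-carbon enzyme SHMT2 by 1.33 and the glycyl-tRNA synthetase gene GARS by 1.43 on the log2 scale. DDIT3, a stress factor downstream of ATF4, had 11.4, 9.44 and 14.6 CPM in hairpin 1 against 11.0, 17.7 and 22.5 CPM in scramble, with overlap (edgeR adjusted p = 0.256). An ATF4 composite match (TGATGNAA, either strand) lay in 12 of 37 promoters of the list (32.4%), against 1.76% for genes tested and 3.67% for all promoters. The list was written with known ATF4 targets in it, so this share does not bear on the change with hairpin 1. Promoters of all genes that fell held a match in 3.57%, and those of all genes that rose in 0.426%. The list's calls numbered 14, 6 and 10 without hairpin 1 replicates 1, 2 and 3, and 34, 8 and 9 without scramble replicates 1, 2 and 3. PHGDH had an adjusted p of 0.0509 to 0.0599 when any 1 hairpin 1 library was left out, whereas PSAT1, SLC38A1, GARS and SHMT2 were among the 6 members that held in all 6 fits.

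Ribosome building and splicing had fewer calls. Of 51 tested genes of MYC-driven and nucleolar ribosome biogenesis, 11 fell and none rose, with a median log2 fold change of -0.51. ODC1, the rate-limiting enzyme of polyamine synthesis and a known MYC target, had 26.0, 29.7 and 30.2 CPM in hairpin 1 against 60.0, 62.3 and 71.7 CPM in scramble, a log2 fold change of -1.17 ± 0.14 (edgeR adjusted p = 0.00166). MYC had 139, 215 and 180 CPM in hairpin 1 against 233, 375 and 329 CPM in scramble, and did not pass (edgeR adjusted p = 0.0567). Of 55 tested spliceosome, SR and hnRNP genes, 14 fell and none rose, with a median of -0.40. SNRPF, an Sm ring protein, had 15, 12.7 and 12.8 CPM in hairpin 1 against 25.6, 27.4 and 27.7 CPM in scramble. The biogenesis count was 1 to 6 and the splicing count 2 to 8 when 1 library was left out, and 29 and 25 with the replicate block in the fit of 6 libraries. Only ODC1 and SNRPF among the called members of these lists held in all 6 fits that left out 1 library.

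**Figure D3:**
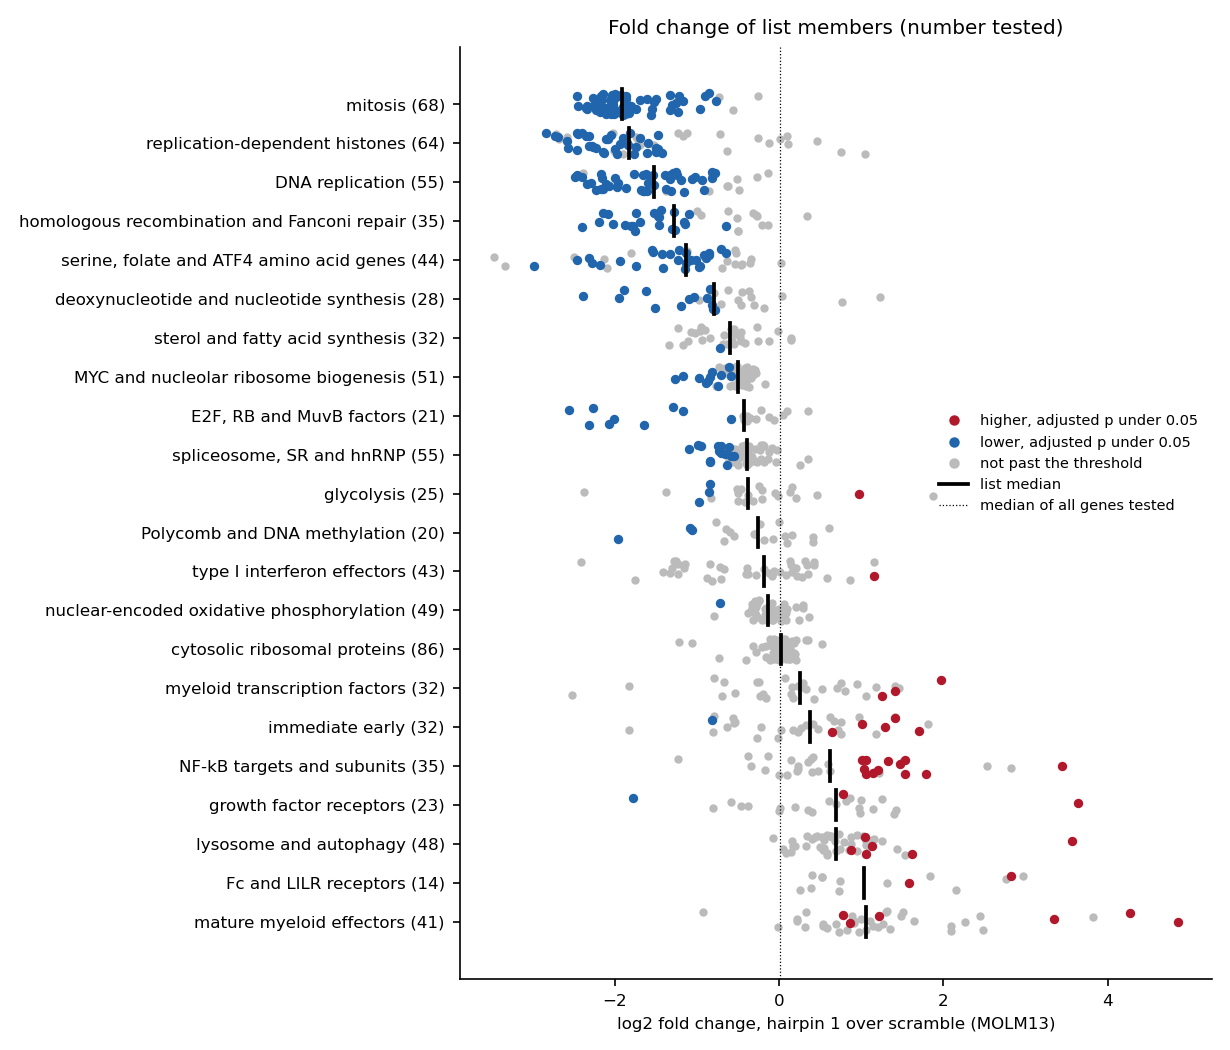
Log2 fold changes, hairpin 1 over scramble, of the tested members of 22 gene lists in MOLM13, one row a list and one point a gene. The mitosis and DNA replication rows lie left of zero for every member, and the mature myeloid row lies right of zero for 39 of 41.

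Targets and subunits of NF-kB, the transcription factor of inflammatory signalling, gave the largest count of rises among the lists: 12 of 35 tested rose and none fell, against 2.08% of all genes tested, with a median log2 fold change of 0.62. BIRC3, an inhibitor of cell death, had 10.3, 6.62 and 5.06 CPM in hairpin 1 against 0.752, 0.687 and 0.579 CPM in scramble, a log2 fold change of 3.44 ± 0.39 (edgeR adjusted p = 0.00134). NFKBIA, the feedback inhibitor of the pathway, had 51.3, 39.4 and 41.5 CPM in hairpin 1 against 16.2, 17.2 and 14.3 CPM in scramble. CXCL8, the neutrophil chemokine, is counted in the list of chemokines and their receptors, of which 2 of 21 rose, and had 19.4, 21.5 and 15.1 CPM in hairpin 1 against 3.44, 4.17 and 2.65 CPM in scramble, a log2 fold change of 2.45 ± 0.34 (edgeR adjusted p = 0.00296). In all 3 genes the hairpin 1 values were more than 2-fold above every scramble value. TNFAIP2 rose as well, by 1.54 on the log2 scale, and so did the non-canonical subunit NFKB2, by 1.14. The canonical subunits did not pass (edgeR adjusted p = 0.552 and 0.992): RELA had 21.3, 18.8 and 19.7 CPM in hairpin 1 against 23.2, 22.9 and 21.2 CPM in scramble, and NFKB1 had 30.5, 29.6 and 29.6 CPM against 31.2, 29.6 and 28.7 CPM, in the same order of arms. TNF overlapped between arms (edgeR adjusted p = 0.816). An NF-kB match (10 letters, either strand) lay in 12 of 30 promoters of the list (40.0%), against 12.9% for genes tested and 10.8% for all. The list was written from known targets, so this share does not bear on the change with hairpin 1. Promoters of all genes that rose held a match in 14.0%, and those of all genes that fell in 10.7%. The list had 3 to 8 rises when 1 library was left out, with 1 fall without scramble replicate 1, and BIRC3, NFKBIA and TNFAIP2 held in all 6 of those fits, as did CXCL8.

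Effectors of mature myeloid cells were higher in most members, but few passed the test. Of 41 tested, 6 rose and none fell, where 2.08% of all genes tested rose. The median log2 fold change was 1.06. Hairpin 1 values were all above the scramble values in 22 members, and in 16.5% of all genes tested. ADAMDEC1, a protease of macrophages and dendritic cells, had 37.2, 22.2 and 19.9 CPM in hairpin 1 against 1.82, 1.78 and 0.562 CPM in scramble. C3, a complement component made by macrophages and counted in the complement list, of which it was the 1 rise among 12 tested, had 144, 80.4 and 91.7 CPM in hairpin 1 against 5.04, 9.29 and 3.11 CPM in scramble, a log2 fold change of 4.19 ± 0.66 (edgeR adjusted p = 0.00866). MMP9, a secreted gelatinase, had 2.96, 0.798 and 0.780 CPM in hairpin 1 against 0.182, 0.127 and 0.123 CPM in scramble. These 3 genes held in all 6 fits that left out 1 library. MMP9 had a mean log2 CPM of -1.01, so its scramble levels rest on few counts and the size of its rise is uncertain. CD14, the monocyte receptor for lipopolysaccharide, had 6.66, 0.970 and 1.00 CPM in hairpin 1 against 0.0912, 0.153 and 0.0527 CPM in scramble (edgeR adjusted p = 0.0256). The scramble levels of CD14 rest on few counts as well. Hairpin 1 replicate 1 was the highest for CD14, MMP9 and C3, and CD14 did not hold in all 6 of those fits. LYZ, lysozyme, overlapped between arms (edgeR adjusted p = 0.389), and ITGAM had 119, 31.9 and 31.2 CPM in hairpin 1 against 28.3, 20.8 and 9.16 CPM in scramble (edgeR adjusted p = 0.200). Of 13 tested primary granule genes, none passed in edgeR, whereas 1 fell with the replicate block over 9 libraries, by DESeq2, by limma-voom and in the fit of 6 libraries, and 3 rose and 2 fell with the block in the fit of 6.

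The myeloid list also differed between replicate numbers. Its mean log2 CPM, set against the scramble average, was 1.8, 0.66 and 0.69 in hairpin 1 replicates 1 to 3 against 0.38, 0.15 and -0.53 in scramble replicates 1 to 3, so replicate 1 was the highest in both arms. Markers of mast cells and basophils differed between replicate numbers too: TPSB2, a mast cell tryptase, had 133, 11.8 and 14.1 CPM in hairpin 1 against 119, 6.97 and 6 CPM in scramble. The summed level of the 6 mast and basophil markers, all detected in at least 1 library, was taken over unscaled library totals. It ran from 13.5 to 160 CPM in hairpin 1 and from 8.08 to 170 CPM in scramble. In these bulk libraries, a change in the number of cells of a type and a change in RNA per cell cannot be told apart, and the part of this difference between replicates in the myeloid result was not tested. Without hairpin 1 replicate 1 the list had 3 rises and 2 falls, with a median of 0.60. The falls were C5AR1 and VCAN, and ADAMDEC1, MMP9 and CD14 remained called. Between 2 and 6 members rose in the other 5 such fits, and 25 rose with the replicate block in the fit of 6 libraries.

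Receptors and regulators of the myeloid lineage gave single rises. Of 14 tested Fc and LILR receptors 2 rose, where 2.08% of all genes tested rose. The median log2 fold change was 1.03, and 0.42 without hairpin 1 replicate 1. The list's mean log2 CPM over the scramble average was 1.79 in that library against 0.56 and 0.52 in hairpin 1 replicates 2 and 3. FCGRT, the neonatal Fc receptor, had 117, 136 and 112 CPM in hairpin 1 against 45.0, 53.7 and 23.2 CPM in scramble (edgeR adjusted p = 0.00880). FCAR had 34.5, 11.8 and 12 CPM in hairpin 1 against 5.45, 1.6 and 1.18 CPM in scramble (edgeR adjusted p = 0.0377), but stayed past the threshold only without scramble replicate 1 when single libraries were left out. AOAH, which deacylates lipopolysaccharide, had 33.3, 20.5 and 25 CPM in hairpin 1 against 8.48, 5.29 and 4.95 CPM in scramble and held in all 6 fits. Of 32 tested myeloid transcription factors 3 rose, against 2.08% of all genes tested. TFEC, a relative of the lysosomal factor TFEB found in macrophages, had 93.4, 107 and 93.0 CPM in hairpin 1 against 39.3, 46.1 and 37.2 CPM in scramble, a log2 fold change of 1.26 ± 0.20 (edgeR adjusted p = 0.00554). KLF4, a factor of monocyte differentiation, rose by 1.42 on the log2 scale and lost its call without scramble replicate 3. SPI1 and CEBPA, the master regulators of the lineage, overlapped between arms, with edgeR adjusted p of 0.371 and 0.248. Of 30 tested stem and leukaemia regulators, 1 fell and none rose, where 4.13% of all genes tested fell. BCL2, the survival factor, had 50.2, 89.8 and 91.8 CPM in hairpin 1 against 152, 201 and 251 CPM in scramble (edgeR adjusted p = 0.0220), with the call lost without hairpin 1 replicates 1 or 2 and without scramble replicates 2 or 3. MEIS1, HOXA9 and MYB did not pass.

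Among growth factor receptors, 2 of 23 tested rose and 1 fell, where 2.08% of all genes tested rose and 4.13% fell. MERTK, which lets macrophages take up apoptotic cells, had 0.512, 0.884 and 1.05 CPM in hairpin 1 against 0.0456, 0.0509 and 0.0878 CPM in scramble, a log2 fold change of 3.64 ± 0.60 (edgeR adjusted p = 0.00655). Its relative TYRO3 went the other way, with 0.585, 0.599 and 0.491 CPM in hairpin 1 against 1.37, 1.78 and 2.60 CPM in scramble (edgeR adjusted p = 0.0206). The MERTK call held in all 6 fits that left out 1 library, and the TYRO3 call in 1. MERTK had a mean log2 CPM of -1.72, so its scramble levels rest on few counts and the size of its rise is uncertain. FLT3, mutated in this line, had 161, 175 and 156 CPM in hairpin 1 against 212, 292 and 235 CPM in scramble, without passing (edgeR adjusted p = 0.182).

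Lysosome and autophagy genes were mostly higher. Of 48 tested, 6 rose and none fell, where 2.08% of all genes tested rose. The median log2 fold change was 0.69, and 47 of 48 had a positive sign, against 9100 of 17732 genes tested. SQSTM1, the autophagy receptor also called p62, had 259, 236 and 229 CPM in hairpin 1 against 108, 121 and 101 CPM in scramble, a log2 fold change of 1.13 ± 0.18 (edgeR adjusted p = 0.00585). PSAP, the precursor of the saposins, had 933, 535 and 581 CPM in hairpin 1 against 301, 223 and 143 CPM in scramble. FTH1, the ferritin heavy chain and the 1 rise among 23 tested NRF2, ferritin and antioxidant genes, had 557, 300 and 303 CPM in hairpin 1 against 106, 142 and 68.9 CPM in scramble, a log2 fold change of 1.87 ± 0.34 (edgeR adjusted p = 0.0110). Hairpin 1 replicate 1 was again the highest for all 3 genes. The lysosome list had 1 to 10 rises when 1 library was left out, with a median of 0.41 without hairpin 1 replicate 1, and 33 rises with the replicate block in the fit of 6 libraries. PLIN2, which coats lipid droplets, rose by 1.41 on the log2 scale, with the call lost without hairpin 1 replicates 1 or 3 and without scramble replicates 2 or 3. Of 32 tested genes of sterol and fatty acid synthesis, 1 fell, with a median of -0.60, where 4.13% of all genes tested fell. That gene, ACACA, the first enzyme of fatty acid synthesis, had an edgeR adjusted p of 0.0371 and of 0.0686 with the replicate block over 9 libraries, but 0.0159 with it in the fit of 6. The arms overlapped in the mean log2 CPM of this synthesis list, set against the scramble average. It was -0.0789, -0.913 and -0.789 in hairpin 1 replicates 1 to 3 against 0.339, 0.415 and -0.753 in scramble replicates 1 to 3.

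BTG2, an antiproliferative gene, had 47.1, 47.8 and 46.8 CPM in hairpin 1 against 19.2, 17.6 and 9.48 CPM in scramble, a log2 fold change of 1.62 ± 0.30 (edgeR adjusted p = 0.0118). It was almost level across the hairpin 1 libraries and held in all 6 fits that left out 1 library. Of 32 tested immediate early genes, 5 rose and 1 fell, where 2.08% of all genes tested rose and 4.13% fell. JUN had 8.78, 14.0 and 23.5 CPM in hairpin 1 against 4.19, 5.32 and 4.79 CPM in scramble (edgeR adjusted p = 0.0194), and was past the threshold in 1 of the 6 fits, that without hairpin 1 replicate 1. FOS overlapped between arms, and the list had 0 to 6 rises when 1 library was left out, with none without scramble replicate 3.

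A few chromatin genes fell as well, UHRF1 among them, which is also counted with replication. Of 20 tested Polycomb and DNA methylation genes, 3 fell and none rose, where 4.13% of all genes tested fell. All 3 held in every fit that left out 1 library. UHRF1, which guides DNA methylation to new strands, had 14.6, 25.6 and 24.6 CPM in hairpin 1 against 77.7, 107 and 68.1 CPM in scramble, a log2 fold change of -1.96 ± 0.24 (edgeR adjusted p = 0.00173). DNMT1, the maintenance methyltransferase, had 69.3, 67.0 and 65.9 CPM in hairpin 1 against 133, 147 and 142 CPM in scramble. EZH2, the Polycomb methyltransferase, fell by 1.09 on the log2 scale. Of 22 tested SWI/SNF subunits, 2 fell and 1 rose, where 4.13% of all genes tested fell and 2.08% rose. BCL7A, an accessory subunit, had 9.69, 10.7 and 10.8 CPM in hairpin 1 against 23.4, 21.3 and 26.4 CPM in scramble (edgeR adjusted p = 0.00203) and also held in every such fit. SMARCC1, the CARM1 substrate, had 78.1, 91.1 and 104 CPM in hairpin 1 against 105, 120 and 111 CPM in scramble (edgeR adjusted p = 0.285).

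Other programmes showed few or no calls. No gene of 86 cytosolic ribosomal protein genes tested changed in edgeR, with a median log2 fold change of 0.03. Of 49 nuclear genes of oxidative phosphorylation 1 fell, CYCS, which encodes cytochrome c, and of 25 glycolysis genes 3 fell and 1 rose. CYCS was called in none of the 6 fits that left out 1 library, and LDHA, PDK1 and PFKFB3 of glycolysis in 1 each. Of 43 type I interferon effectors 1 rose, where 2.08% of all genes tested rose and 4.13% fell. It was TRIM22, with an edgeR adjusted p of 0.0404 that was 0.0617 with the replicate block over 9 libraries and 0.00198 with it in the fit of 6. The interferon median was -0.18, but 0.12 by limma-voom and 0.64 without scramble replicate 2, in which ISG15 had 20.5 CPM against 5.20 and 4.28 CPM in the other scramble libraries. HLA class II genes had no calls among 8 tested.

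**Figure D4:**
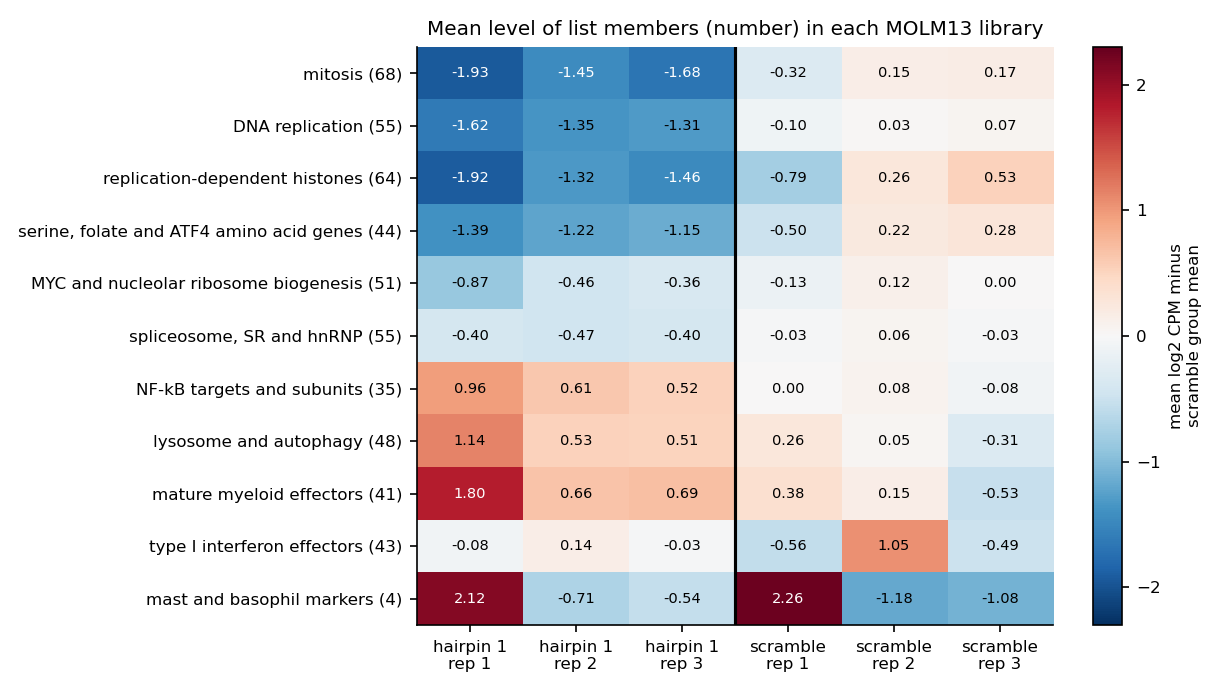
Mean log2 CPM of the tested members of 11 gene lists in each of the 6 MOLM13 libraries, minus the mean of the scramble libraries, with hairpin 1 on the left and scramble on the right. Mitosis and replication are low in all 3 hairpin 1 libraries, while the mature myeloid list reaches 1.8 in hairpin 1 replicate 1 against 0.66 and 0.69 in the other two.

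The libraries also differed outside the mRNA programmes. Abundant structured RNAs took 16.0%, 18.3% and 20.6% of counts in hairpin 1 against 12.4%, 13.5% and 11.3% in scramble (two-sided exact permutation p = 0.1, the smallest possible, and 0.3 adjusted over 6 measures of the libraries). Leaving mitochondrial and structured RNAs out of the fit gave 1129 calls, and the part of this shift in single genes was not tested. Of other cell types' markers, 6 of 17 erythroid, 2 of 9 megakaryocyte and 2 of 13 T and NK cell markers were at 0 in all 6 libraries. So were 1 of 11 fibroblast and epithelial and 0 of 8 B cell markers. PF4 of platelets, CD3G of T cells and KRT19 of epithelium were among those at 0. The other members had counts in at least 1 library. Sums over marker lists used unscaled library totals, unlike the CPM of single genes. Summed erythroid markers ran from 5.04 to 8.13 CPM in hairpin 1 and from 8.29 to 12.1 CPM in scramble. Summed fibroblast and epithelial markers ran from 8.67 to 10.4 CPM in hairpin 1 and from 11.3 to 12.6 CPM in scramble. Whether these arms stay apart after TMM scaling was not tested. Of 4 tested T and NK cell markers, TRAC and CD3D fell, while NKG7 and GNLY had hairpin 1 values all above the scramble values without passing (edgeR adjusted p = 0.159 and 0.0907), and the summed list ran from 36.9 to 41.3 CPM in hairpin 1 and from 32.8 to 40.6 CPM in scramble. TRAC, the constant region of a T cell receptor chain, had 3.99, 2.02 and 2.70 CPM in hairpin 1 against 6.54, 9.24 and 10.1 CPM in scramble, with the call lost without hairpin 1 replicates 2 or 3 and without scramble replicates 2 or 3.

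Hairpin 1 was also set against the second CARM1 hairpin in MOLM13. No gene of 17732 differed between hairpin 1 and hairpin 2 at an adjusted p under 0.05 in edgeR (0.0%), and 321 did at an unadjusted p under 0.05 (1.81%). The second count ran from 112 without hairpin 2 replicate 2 to 1861 without hairpin 2 replicate 3. A p that misses the threshold does not show that the hairpins act alike. By DESeq2 1 gene differed, by limma-voom 0, and 13 with no filter on low counts. CARM1 had 2.52, 5.13 and 4.82 CPM with hairpin 1 and 4.40, 3.92 and 2.44 CPM with hairpin 2, and its log2 difference between the hairpins was 0.22 ± 0.30. The 2 hairpin arms were set against the same scramble libraries, so their effects are not independent. Median log2 fold changes of hairpin 1 and hairpin 2 over scramble stood at -1.53 and -1.39 for DNA replication, -1.91 and -1.99 for mitosis, -1.14 and -0.96 for serine and amino acid supply, 0.62 and 0.56 for NF-kB and 1.06 and 1.06 for mature myeloid effectors. The genes nearest to a difference, chosen by smallest p among those without overlap, were TMEM38A, ALDH5A1, BIK and BIVM-ERCC5 on the higher side and ANKHD1-EIF4EBP3, SRCAP, HNRNPH3 and U2AF1 on the lower side, none of them past the threshold.

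MV411 carries a KMT2A-AFF1 fusion and the same kind of FLT3 mutation. The effect of hairpin 1 differed between MOLM13 and MV411 for 2 of 21262 genes in edgeR's interaction test (0.00941%), and 1405 (6.61%) had an unadjusted p under 0.05. Both of the 2 genes, named after their values were seen, were higher with hairpin 1 in MOLM13. NLRC4, an inflammasome sensor, had 168, 104 and 139 counts in hairpin 1 and 47, 52 and 39 in scramble of MOLM13, and 75, 101 and 71 counts in hairpin 1 and 169, 208 and 246 in scramble of MV411. The arms lay in opposite order in the 2 lines, although the change within MV411 did not pass (edgeR adjusted p = 0.0984), and the difference was 3.10 ± 0.54 on the log2 scale (edgeR adjusted p = 0.0482). MIR3142HG, the host transcript of a microRNA that restrains NF-kB signalling, had 58, 55 and 53 counts in hairpin 1 and 0, 3 and 0 in scramble of MOLM13, and 224, 288 and 161 counts in hairpin 1 and 99, 144 and 152 in scramble of MV411 (edgeR adjusted p of the difference 0.0482). Other settings gave between 0 and 285 calls for this difference. In MV411 itself, taken from the fit of all 27 libraries, hairpin 1 lowered 49 of 55 DNA replication genes, 64 of 68 mitosis genes and 47 of 64 histone genes, where 3.32% of 17696 genes fell. It lowered 6 of 44 serine and amino acid supply genes and raised 6 of 35 NF-kB genes and 4 of 41 mature myeloid effectors, where 1.38% of genes rose. The same fit called more genes in MOLM13 than the fit of its 9 libraries used above, 2103 in all, with falls in 49 of 55 DNA replication, 62 of 68 mitosis, 50 of 73 histone and 32 of 44 serine and amino acid supply genes and rises in 17 of 37 NF-kB genes and 17 of 42 mature myeloid effectors. CXCL8 had an MV411 log2 fold change of 0.76 (edgeR adjusted p = 0.275), and none of these lists held a gene that differed between the 2 lines.

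SKNO1, an AML line with the RUNX1-RUNX1T1 fusion, had far fewer calls. CARM1 fell by 2.37 on the log2 scale in MOLM13 and fell by 1.24 in SKNO1, and the difference of the effects in the joint fit was -1.12 ± 0.32 (edgeR adjusted p = 0.0432), so the 2 lines were compared at unequal knockdown. In SKNO1, in the same fit of 27 libraries, 0.831% of 17696 genes rose and 0.192% fell. None of the 55 DNA replication, 68 mitosis, 64 histone or 44 serine and amino acid supply genes was called there. The effect of hairpin 1 differed between MOLM13 and SKNO1 for 962 of 21262 genes (4.52%), with 314 more positive in MOLM13 (1.48%) and 648 more negative (3.05%), and 3967 (18.7%) had an unadjusted p under 0.05. More negative in MOLM13 were 33 of 64 histone genes, 23 of 55 DNA replication genes, 16 of 44 serine and amino acid supply genes and 15 of 68 mitosis genes. More positive were 10 of 35 NF-kB genes. The nucleoside carrier SLC29A1 and the amino acid carrier SLC1A5 had differences of -1.63 ± 0.21 and -2.29 ± 0.30 (edgeR adjusted p = 2.79e-04 for both), and CXCL8 had one of 2.77 ± 0.41 (edgeR adjusted p = 0.00110). Scramble replicates 1 and 3 of SKNO1 lay closer to each other than any other pair of replicates compared, at a chi-square per gene of 8.56 against 24.2 or more, and if they share a culture the p-values of this comparison are too small. The count was 234 without SKNO1 hairpin 1 replicate 3, 254 and 398 without SKNO1 scramble replicates 1 and 3, 323 and 486 without MOLM13 scramble replicates 2 and 3, and 630 without MOLM13 hairpin 1 replicate 3.

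**Figure D5:**
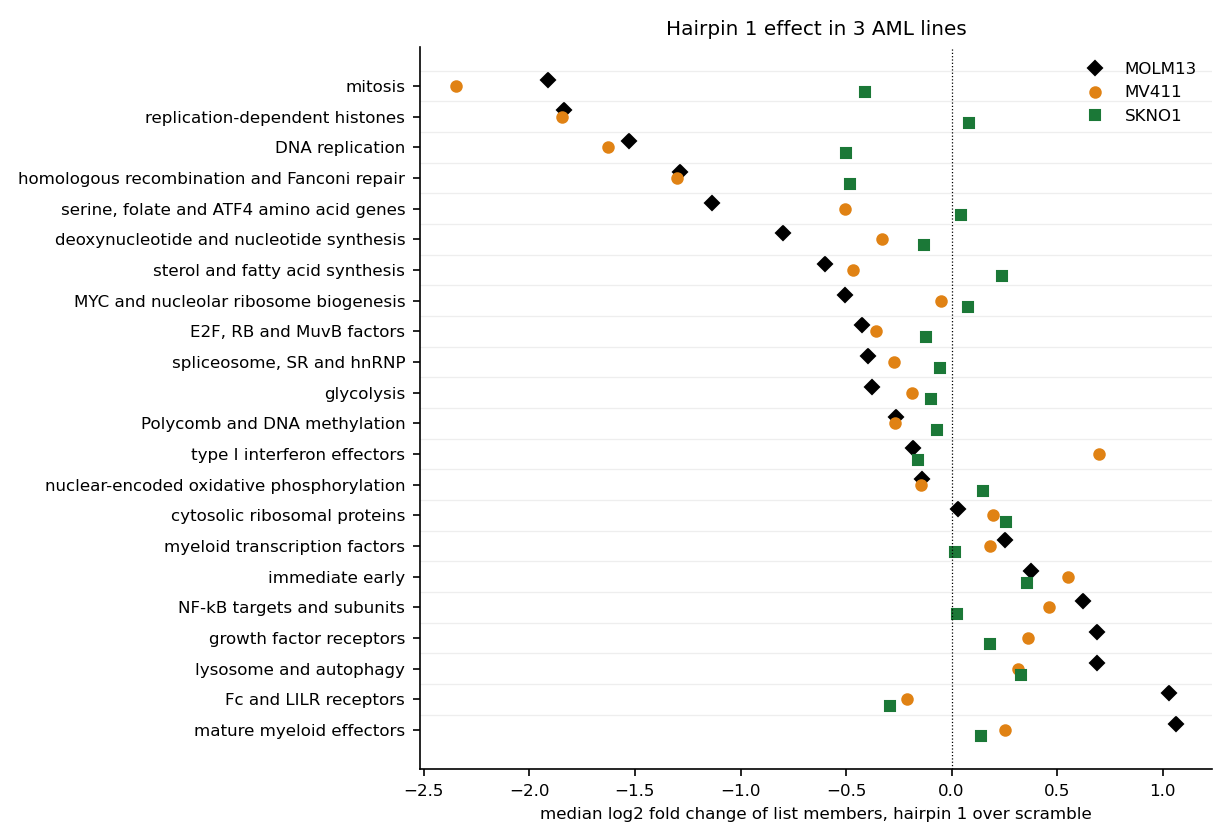
Median log2 fold change, hairpin 1 over scramble, of the tested members of 22 gene lists, with MOLM13 (fit of 9 libraries) as black diamonds and, from the fit of 27, MV411 as orange circles and SKNO1 as green squares. The mitosis, histone and replication medians of MOLM13 and MV411 lie between -2.35 and -1.53, and those of SKNO1 between -0.50 and 0.08.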

How the data were processed

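RNA was measured in 27 libraries made with a stranded total RNA kit after Ribo-Zero treatment, per the labels' protocols, and 6 of them form the main comparison. STAR 2.5.3, RSEM and the genome build GRCh38.p7 are named in the submitters' processing notes, which give no RSEM version. The authors deposited 1 table of expected counts for 57992 genes, and 30.39% of the non-zero entries are not whole (tolerance 1e-09) because RSEM divides reads that match several genes. How strand was set in counting is not given in the sources used here, so antisense partners can take each other's reads.

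Expected counts were rounded and fitted in R 4.3.3 with edgeR 4.0.16 (robust quasi-likelihood, TMM scaling, filterByExpr with a minimum count of 10 and a minimum total of 15) over the 9 MOLM13 libraries as 3 groups. Two-sided p-values were adjusted after Benjamini and Hochberg across every tested gene, at a threshold of 0.05. Differences between lines were interaction terms in a fit of all 27 libraries and 21262 genes. SEs of log2 fold changes come from the F statistic. CPM use TMM-scaled library sizes, except sums over cell type markers, which use unscaled library totals. Alternatives were DESeq2 1.42.0, limma-voom (limma 3.58.1), other scalings, filters and samples, and each library left out in turn. The edgeR fit was tested on simulated counts. Lists and promoters were handled in Python 3.11.15 with pandas 2.3.3. Promoters on chromosome 8 were not printed. Results for some genes are not reported here.

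The comparison, its gene lists and its tests were chosen with earlier results of these data known. Named genes are CARM1, the 15 per direction with the largest change among called genes with a mean log2 CPM of at least 2 and no overlap, up to 4 list members by smallest p, members that define a list's role, and up to 4 genes per direction for each other comparison. No label says whether replicates were separate cultures, so p-values measure the spread between these samples, which may be technical. Replicate libraries of MOLM13 differed by a chi-square per gene of 48.9 to 106.5, far above sampling noise. The labels number the replicates. Deviations of same-numbered hairpin 1 and scramble libraries from their group means correlated across genes at r = 0.467, 0.259 and 0.457. The numbers were therefore taken to pair these arms, but only in the fits with the replicate block. The main fit leaves this pairing out, so its p-values are unpaired. Hairpin 1 replicate 2 correlated as well with scramble replicate 3 (r = 0.258), and same-numbered hairpin 2 libraries gave -0.236, 0.271 and -0.217 with hairpin 1 and 0.302, 0.009 and -0.342 with scramble, so the numbers do not pair hairpin 2, which the block over 9 libraries also treats as paired.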

Additional observations from a re-analysis of the deposited data

Results flagged for a closer look

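The effect of hairpin 1 differed between MOLM13 and MV411 for 2 genes and between MOLM13 and SKNO1 for 962 genes, each by the interaction test in edgeR. Genes were named for the MOLM13 and SKNO1 comparison by smallest p, at a mean log2 CPM of at least 2. Those with a more positive effect in MOLM13 were CXCL8 (difference of log2 fold changes 2.77) and PDE4B, a phosphodiesterase that degrades cyclic AMP (2.57). TLR4, the receptor for lipopolysaccharide (2.23), and GSAP (1.23) completed them. Other genes named above also differed in this direction, such as BIRC3 (4.61, edgeR adjusted p = 7.69e-05). TLR4 itself had 71.3, 50.1 and 53 CPM in hairpin 1 against 40.4, 17.3 and 17.6 CPM in scramble of MOLM13, with an edgeR adjusted p of 0.0658 there and of 0.0184 with the replicate number as a block over the 9 MOLM13 libraries (0.00251 in the fit of 6). By the same rule, the genes with a more negative effect in MOLM13 were the organic anion carrier SLCO4A1 (-2.67), SLC1A5 (-2.29), the helicase subunit MCM2 (-1.88) and SLC29A1 (-1.63). Other genes named above differed in this direction too, such as PHGDH (-3.03, edgeR adjusted p = 0.00405). SLC29A1 had 11.3, 10.3 and 12.2 CPM in hairpin 1 against 27.8, 29.7 and 28 CPM in scramble of MOLM13, and a SKNO1 log2 fold change of 0.29 (edgeR adjusted p = 0.383). Knockdown of CARM1 was deeper in MOLM13 than in SKNO1, and SKNO1 alone was grown with GM-CSF, so line, medium and depth of knockdown cannot be told apart.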

How the results depend on the processing

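For hairpin 1 against scramble, the count of called genes was 1101, and 1031 with the replicate number as a block, of which 888 were shared. It was 1995 (876 higher and 1119 lower) with no filter on low counts, 2034 (869 and 1165) by DESeq2, 1744 (689 and 1055) with the 6 libraries only, 2103 (980 and 1123) with all 27 libraries, and 3159 (1428 and 1731) with the replicate block in the fit of 6 libraries, which was chosen after seeing the data. DESeq2 size factors in edgeR (1090), limma-voom (1113) and leaving out mitochondrial and structured RNAs (1129) moved it little. Leaving out 1 library gave 361 to 928. Between hairpins the count was 0, and 13 with no filter, 1 by DESeq2 and 0 to 1 with 1 library left out. For MOLM13 against MV411 it was 2, and 0 with DESeq2 size factors, 0 by limma-voom, 285 with no filter, 31 by DESeq2 and 0 to 2 with 1 library left out. For MOLM13 against SKNO1 it was 962, and 1652 by DESeq2 and 234 to 1137 with 1 library left out. The share of structured RNAs differed by 5.90 percentage points of all counts, and by 9.12 points of counts outside mitochondrial rRNA. The cause of these shifts was not tested. The log2 fold change of hairpin 1 over scramble was 0.08 for BIK and -0.03 for BIVM-ERCC5, neither called, and ran from -0.0269 to 0.161 for BIK and from -0.0537 to 0.0102 for BIVM-ERCC5 with 1 library left out. BIK turned negative without hairpin 1 replicate 2 (edgeR adjusted p = 0.971) and BIVM-ERCC5 positive without scramble replicate 3 (edgeR adjusted p = 0.989). The block over 9 libraries ended the call of 12 of the 137 named genes and added 1, and the block in the fit of 6 ended 0 and added 3. Depth limits genes near the filter, such as MIR3142HG with 0 to 3 counts in the scramble libraries.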
